A study of Mus musculus with 16 samples.

Results

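The exocyst is a complex of 8 protein subunits, encoded by Exoc1 to Exoc8, that holds a secretory vesicle at the plasma membrane before the 2 membranes fuse. All probes annotated with 1 of these 8 gene symbols were taken from the signal table of 16 mouse hearts, which gave 7 probes of 25697, 1 for each of Exoc2 to Exoc8, or 7 of 16593 named genes. Exoc1 is named by no probe in the annotation used here and is not analysed. The family was chosen by the genotype differences of Exoc2 and Exoc4 on these same arrays, so all comparisons of cs-ERα-/- with wild type hearts are given below for the members as a description, without a p-value. Sex and the interaction of sex with genotype took no part in that choice and were tested.

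The hearts came from 4 groups of 4 C57BL/6 mice at 18 weeks of age, male and female, either wild type (WT) or with a cardiac-specific knockout of estrogen receptor alpha (cs-ERα-/-, marked KO in the plots), and none was treated. By the study's methods, WT mice were ERα flox/flox, so both genotypes carry alleles with a floxed exon 3, and cs-ERα-/- mice in addition carry a Cre recombinase driven by the α-MHC promoter of cardiomyocytes. Those methods name no WT mice with Cre, so the effects of Cre and of the lost receptor cannot be told apart. Total RNA of pulverized heart tissue was hybridized to Illumina Mouse Ref-8 arrays, 1 array for each mouse.

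In dividing and polarized cells the exocyst is recruited by small GTPases, above all RalA, RalB and Rab11, and by phosphoinositides of the plasma membrane, and it hands the vesicle on to SNARE proteins that fuse the membranes. Exoc1 to Exoc4 (Sec3, Sec5, Sec6 and Sec8 in yeast) form one subcomplex and Exoc5 to Exoc8 (Sec10, Sec15, Exo70 and Exo84) the other. In fat cells it takes part in the insulin-stimulated delivery of the glucose transporter GLUT4, a transporter that the heart also uses.

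The arrays as a whole gave the following limits. Between 11492 and 12610 probes were detected on an array, median signals were 17.2 to 25.6, and 2 arrays correlated at 0.9882 to 0.9946 (their number, 4 a group, limits the precision). Both probes of Esr1, the deleted gene, were detected on 0 of 16 arrays, which leaves the deletion unchecked by these data, while the sex-specific genes Xist and Eif2s3y were detected in the 8 females and the 8 males only, respectively. All 9 cardiomyocyte markers with a probe were detected, with sums of 197900 to 213300 in male WT against 224300 to 244300 in male cs-ERα-/- hearts, without overlap, and of 209600 to 221100 against 215700 to 239100 in females. These sums include Nppa, the 1 marker of the 9 called for genotype, higher by 1.02 (adjusted p = 3.03e-06 from limma). Differences of 7 of the 9 were positive, while Ryr2 (-0.22) and Tnni3 (-0.07) were lower without a call. The summed level of 12 macrophage and myeloid markers, all 12 of them detected, ranged from 19740 to 24090 in male WT, 16870 to 20890 in female WT, 24320 to 33580 in male cs-ERα-/- and 24700 to 27090 in female cs-ERα-/- hearts, so it moved with genotype. Of 5 detected markers of skeletal muscle (Tnnt3 was not detected), 4 rose by genotype, where 4.51% of named genes had a called probe. Their sums were 4271 to 9588 and 7846 to 12550 in male WT and cs-ERα-/- hearts, and 2292 to 3439 and 4460 to 10180 in females. Of the 5, Acta1 alone was called for sex, with a female minus male difference of -0.88 (adjusted p = 0.0115 from limma). For 2 of 4 smooth muscle markers (Cnn1 and Tagln were not detected) the sums were 5476 to 6900 and 7206 to 9789 in male WT and cs-ERα-/- hearts, and 5193 to 7824 and 7176 to 11810 in females. For 7 of 8 fibroblast markers (Postn was not detected) they were 19130 to 21490 and 20820 to 24930 in males, and 19630 to 21210 and 22700 to 24190 in females. Linear sums weight the brightest probe most, which was Acta2 for smooth muscle, Dcn for fibroblasts, Acta1 for skeletal muscle and Lyz1 for myeloid cells. The 2 smooth muscle markers went opposite ways, Acta2 by 0.52 (adjusted p = 0.00372 from limma) and Myh11 by -0.13 (adjusted p = 0.521). The marker lists were chosen with earlier results of these data known, so these counts and sums are a description only. The part of these cell type markers in the differences below was not tested. The methods split the arrays between a pair of BeadChips, and no label says which array was on which chip.

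A probe counted as detected at a detection p under 0.05, and was kept when 3 or more arrays in 1 or more of the groups detected it. Exoc2, Exoc3, Exoc4, Exoc6, Exoc7 and Exoc8 were detected on 16 of 16 arrays and kept. Exoc5, the Sec10 subunit, was detected on 0 of 16, with non-normalized signals of -26.7 to -5.66 and detection p-values of 0.644 to 0.997, so its level has only a bound here and it was left out of all comparisons. Signals of different probes are not compared as levels, because probes differ in how brightly they hybridize.

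Exoc2, known as Sec5, is a subunit through which RalA and RalB bind the exocyst, and it was the member that differed most between genotypes. Its normalized log2 signal was 9.02, 9.11, 9.04 and 9.02 in the 4 male WT hearts and 9.08, 9.11, 8.88 and 9.11 in the 4 female WT hearts. In cs-ERα-/- hearts it was 8.37, 8.44, 8.23 and 8.35 in males and 8.38, 8.34, 8.26 and 8.70 in females. Every cs-ERα-/- mouse lay below every WT mouse, and the female cs-ERα-/- mouse at 8.70 stood closest to the WT range. Means and SDs over 8 mice were 8.39 ± 0.14 (cs-ERα-/-) and 9.05 ± 0.08 (WT), which differ by -0.66 on the log2 scale (standard error 0.06), or 0.633 of the WT signal. Of the 12246 kept probes, 7 had a lower genotype difference. This rank lends no support, because the Exoc2 difference led to the choice of the family. Without female cs-ERα-/- replicate 4 the difference was -0.71. In whole-heart RNA, fewer cells that express a gene and less of its RNA in each cell cannot be told apart.

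Exoc2 was lower in cs-ERα-/- hearts of both sexes. The difference was -0.70 in males (standard error 0.09) and -0.62 in females (standard error 0.09). The difference between these, the interaction, was 0.08 on the log2 scale, with a 95% confidence interval of -0.18 to 0.34 (adjusted p = 0.999 from limma). Before normalization the Exoc2 signal was 449.1 to 574.6 in male WT and 446.1 to 724.1 in female WT hearts, against 255.6 to 379.3 in male and 287.3 to 423.6 in female cs-ERα-/- hearts, so the genotypes did not overlap on that scale either.

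Exoc4, known as Sec8 and needed for early development of the mouse embryo, belongs to the same subcomplex as Exoc2 and differed in the opposite direction. Its log2 signal was 9.19, 9.17, 9.20 and 8.97 in male WT and 9.17, 9.25, 9.03 and 9.25 in female WT hearts. In cs-ERα-/- hearts it was 9.37, 9.50, 9.32 and 9.53 in males and 9.51, 9.38, 9.43 and 9.37 in females. Again the genotypes did not overlap, with a narrow gap of 0.07 between the highest WT and the lowest cs-ERα-/- mouse. The means were 9.43 ± 0.08 and 9.15 ± 0.10 (SD, n = 8 each), a difference of 0.27 (standard error 0.05), or 1.21 times the WT signal. It was 0.30 in males and 0.25 in females (standard error 0.07 each), and the interaction of -0.05 had an interval of -0.26 to 0.17 (adjusted p = 0.999 from limma). On the non-normalized scale the genotypes overlapped, at 488.7 to 789.5 in WT and 527 to 888.1 in cs-ERα-/- hearts.

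To show what the promoters of both differing members hold, the region from 250 bases before to 50 after the annotated start is printed from RefSeq (GRCm38.p6), since the deleted receptor binds DNA at estrogen response elements. Capitals mark the half-site GGTCA or its reverse complement TGACC.
Exoc2, chr13:30973998-30974297, minus strand: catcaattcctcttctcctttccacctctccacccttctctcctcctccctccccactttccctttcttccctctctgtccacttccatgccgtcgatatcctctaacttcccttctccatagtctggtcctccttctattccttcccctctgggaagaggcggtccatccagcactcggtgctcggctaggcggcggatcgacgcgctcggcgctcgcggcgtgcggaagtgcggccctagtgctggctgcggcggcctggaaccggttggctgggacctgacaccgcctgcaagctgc
Exoc4, chr6:33248878-33249177, plus strand: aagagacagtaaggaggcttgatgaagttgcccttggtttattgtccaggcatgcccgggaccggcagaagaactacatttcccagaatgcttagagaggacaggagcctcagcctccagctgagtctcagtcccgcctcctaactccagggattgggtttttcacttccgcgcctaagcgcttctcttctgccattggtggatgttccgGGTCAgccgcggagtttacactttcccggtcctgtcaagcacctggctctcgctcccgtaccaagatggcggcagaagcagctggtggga
Both strands were searched. The full element GGTCANNNTGACC was in 0 of 12 windows of the 8 members and in 0.07% of all 32851 promoter windows. The half-site, which overlaps the full element, was in the Exoc4 window and in neither of the 2 Exoc2 windows, and in those of 4 of the 8 members (Exoc1, Exoc3, Exoc4 and Exoc6), where 40.5% of all windows held it. The GC box GGGCGG, a motif of Sp1 that was searched on both strands, was in neither the Exoc2 nor the Exoc4 windows but in those of 5 of the 8 members (Exoc1, Exoc3, Exoc6, Exoc7 and Exoc8), and in 35.7% of all windows. A match is a description of letters only.

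Exoc8, known as Exo84, is the second subunit that binds Ral GTPases. Its log2 signal ranged from 9.86 to 10.14 in WT hearts, with a median of 10.02, and from 10.06 to 10.35 in cs-ERα-/- hearts, with a median of 10.19, and 5 of 8 cs-ERα-/- mice lay above the highest WT mouse. The difference was 0.19 (standard error 0.05), or 1.14 times the WT signal, with 0.20 in males and 0.18 in females. Of the 2 Ral-binding subunits, Exoc2 was thus lower and Exoc8 higher, with overlap of the genotypes for Exoc8. Exoc8 was called within neither sex, and its call over both sexes was lost in 8 of 10 alternative settings of the processing.

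**Figure D1:**
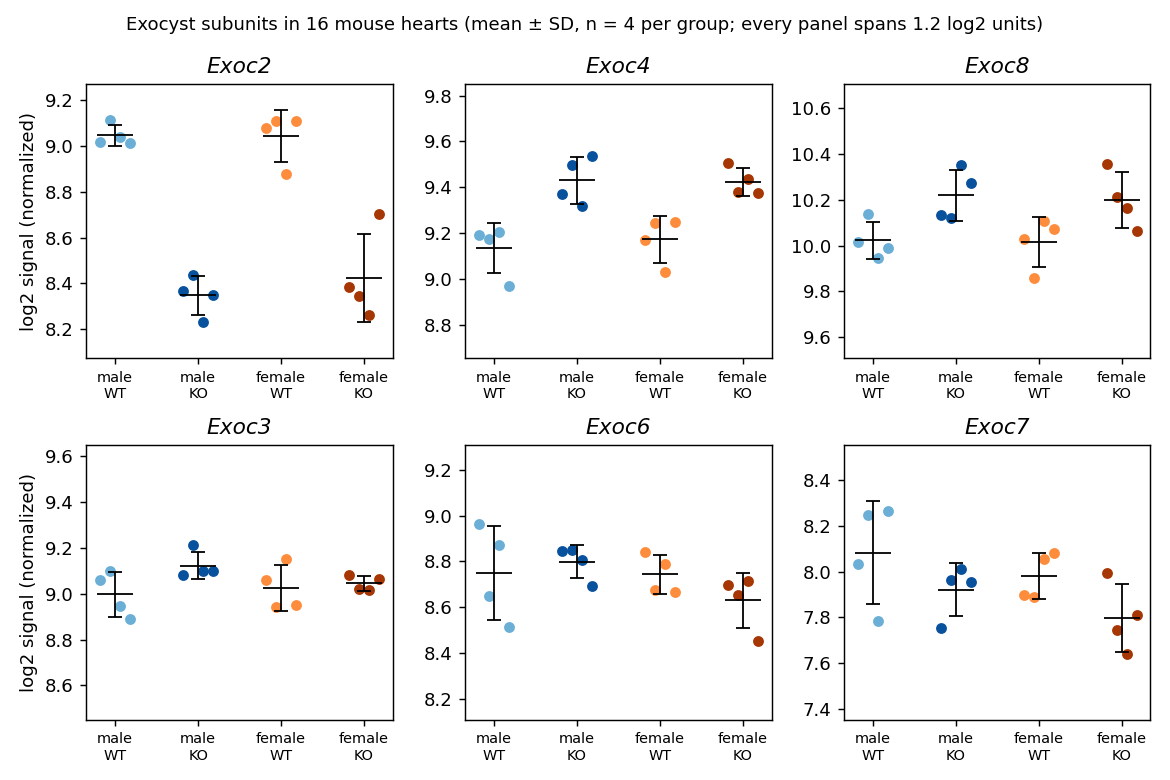
Normalized log2 signal (vertical axis) of the 6 detected exocyst probes in 16 hearts by sex and genotype, where points are mice and bars are the mean ± SD of 4 mice. Exoc2 lies between 8.23 and 8.70 in cs-ERα-/- and between 8.88 and 9.11 in WT mice, Exoc4 is higher in cs-ERα-/- mice without overlap, and the other panels overlap.

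The remaining 3 detected subunits showed smaller differences by genotype. Exoc3, known as Sec6, binds a SNARE protein in yeast. It averaged 9.08 ± 0.06 (cs-ERα-/-) and 9.01 ± 0.09 (WT; SD, n = 8 each), apart by 0.07 (95% confidence interval -0.03 to 0.17). Exoc6, known as Sec15, is the Rab11-binding subunit, and its mutation causes the anemia of hbd mice. It was at 8.71 ± 0.13 and 8.75 ± 0.15 (SD, n = 8 each), a difference of -0.03 (-0.17 to 0.10) whose sign depended on 1 mouse, since it was 0.0045 without male WT replicate 1. Exoc7, known as Exo70, binds phosphoinositides and the insulin-responsive GTPase TC10. It was at 7.86 ± 0.14 and 8.03 ± 0.17 (SD, n = 8 each), a difference of -0.17 (-0.33 to -0.02), and 3 of 8 cs-ERα-/- mice lay below the lowest WT mouse. Exoc7 was not called for genotype. The intervals of this paragraph are not adjusted for the number of probes and are a description only.

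Counted over the 6 detected members, the linear model called 3 for genotype at an adjusted p under 0.05, Exoc2 lower and Exoc4 and Exoc8 higher, where 3.74% of all 12246 kept probes were called, and since this contrast led to the choice of the family nothing is read from the comparison. Groups without overlap between genotypes were seen for 2 members, Exoc2 and Exoc4, and for 0.596% of all probes. The call of Exoc8 was lost in 8 of 10 alternative settings and in 11 of 16 fits that left out 1 array. Exoc4 lost its call with median scaling of the arrays. Within males alone the model called 1 member (0.955% of all probes) and within females alone 1 (0.71%), Exoc2 each time. The median genotype difference over the 6 members was 0.0204, beside -0.00584 over all probes, with 3 members positive and 3 negative. Nothing is read from this either, because Exoc2 and Exoc4 were chosen with differences in opposite directions.

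A ratio of probes on the same array needs no scaling between arrays. The ratio of the Exoc2 to the Exoc4 non-normalized signal was 0.889, 0.955, 0.893 and 1.03 in male WT and 0.933, 0.913, 0.898 and 0.917 in female WT hearts. It was 0.488, 0.462, 0.454 and 0.427 in male and 0.452, 0.477, 0.432 and 0.623 in female cs-ERα-/- hearts. WT hearts averaged 0.928 ± 0.0465 and cs-ERα-/- hearts 0.477 ± 0.0625 (SD, n = 8 each), with no overlap. These ratios have no meaning as amounts of one subunit per other. The Exoc2 to Exoc4 ratio was lower in every cs-ERα-/- mouse than in every WT mouse. That separation lends no support, because both probes were chosen by their genotype differences, which run in opposite directions. Against the geometric mean of Exoc3, Exoc6, Exoc7 and Exoc8, the ratio for Exoc2 averaged 1.08 ± 0.096 (WT) and 0.67 ± 0.104 (cs-ERα-/-), and that for Exoc4 1.16 ± 0.111 and 1.4 ± 0.0854 (SD, n = 8 each). Here the ranges touched or overlapped, at 0.898 to 1.22 against 0.552 to 0.909 for Exoc2, where female WT replicate 3 was lowest and female cs-ERα-/- replicate 4 highest, and at 1 to 1.33 against 1.22 to 1.49 for Exoc4.

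**Figure D2:**
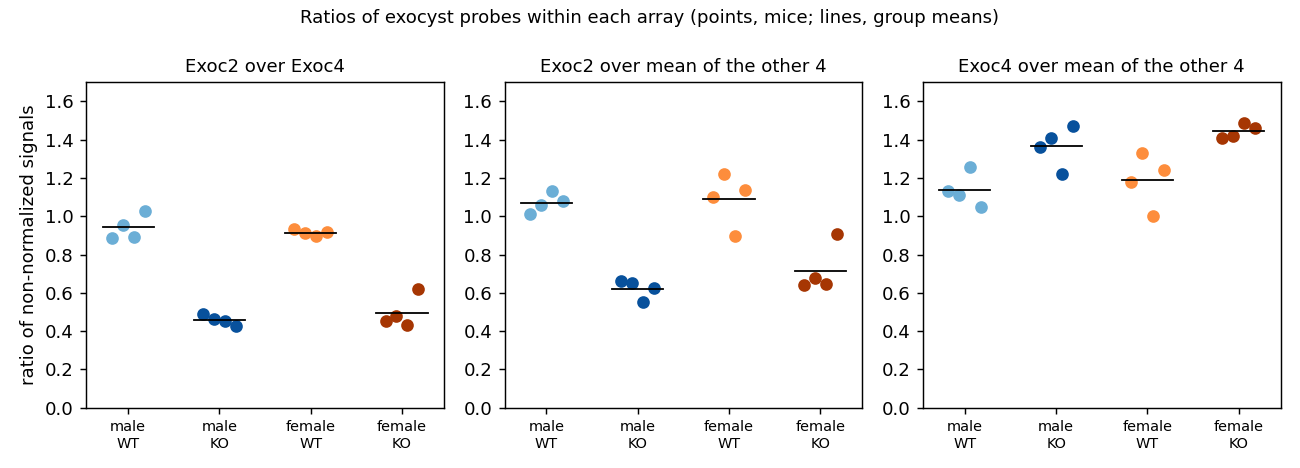
Ratios of non-normalized exocyst signals within each array (vertical axis, no unit) by sex and genotype, where points are mice, lines are means of 4 mice, and the other 4 are Exoc3, Exoc6, Exoc7 and Exoc8. The Exoc2 to Exoc4 ratio is 0.889 to 1.03 in WT and 0.427 to 0.623 in cs-ERα-/- mice, for a pair chosen by its genotype differences.

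Male and female hearts were compared over both genotypes. None of the 6 members passed an adjusted p under 0.05 with limma, beside 1.27% of all kept probes. The smallest unadjusted p of the 6 members was 0.147 from limma, for Exoc7. The sexes overlapped in all 6, while 0.327% of probes showed no overlap. The female minus male difference was largest for Exoc7, at -0.11 (95% confidence interval -0.27 to 0.04, adjusted p = 0.563). Exoc6 differed by -0.09 (-0.22 to 0.05, adjusted p = 0.61). Exoc2 differed by 0.04 (-0.09 to 0.16, adjusted p = 0.862) and Exoc4 by 0.02 (-0.09 to 0.12, adjusted p = 0.947). For Exoc3 the value was -0.02 (-0.13 to 0.08) and for Exoc8 it was -0.01 (-0.12 to 0.10). The intervals thus leave room for sex differences of up to 0.27 on the log2 scale in Exoc7 and 0.22 in Exoc6. For the interaction 0 of 6 members passed, and 0% of all probes passed. At an unadjusted p under 0.05 stood 0 of 6 members and 456 probes, or 3.72%. The largest interaction value among members was that of Exoc6, -0.16 (95% confidence interval -0.43 to 0.10, adjusted p = 0.999), and those of Exoc3, Exoc7 and Exoc8 were -0.11, -0.02 and -0.02.

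**Figure D3:**
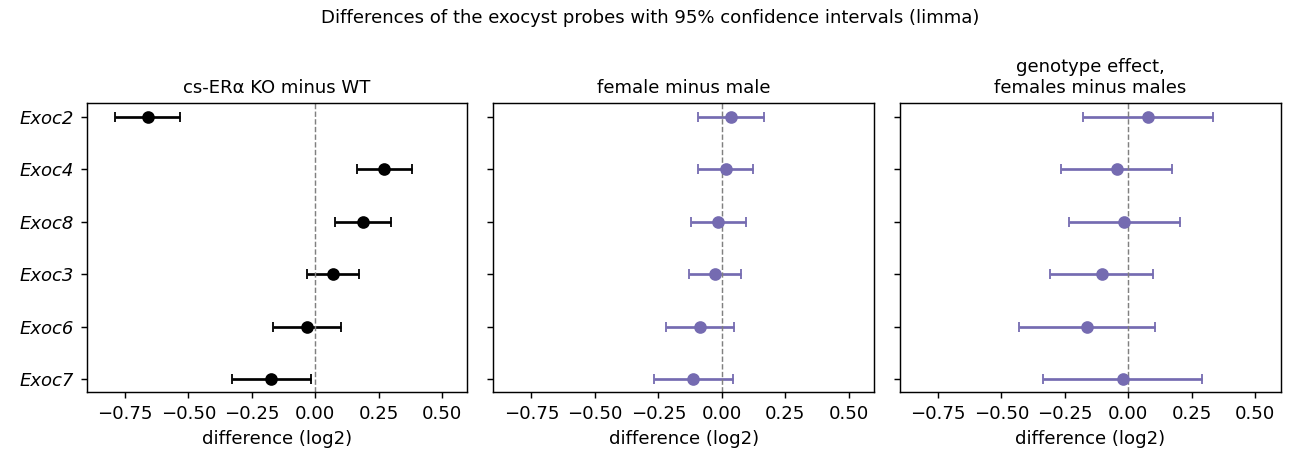
Differences on the log2 scale (horizontal axis) with 95% confidence intervals for the 6 detected exocyst probes, for genotype, for sex and for their interaction. Exoc2 is at -0.66 and Exoc4 at 0.27 for genotype, and the intervals for sex and for the interaction include 0 for all 6 probes. The genotype intervals are a description only, because that contrast led to the choice of the family.

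The members differed in how steady they were among mice of a group. Exoc3 was the steadiest, with a pooled SD within groups of 0.0777, lower than that of all but 8.68% of kept probes, and Exoc7 was the most variable, at 0.155. Exoc2 varied least in male WT hearts (SD 0.0446) and most in female cs-ERα-/- hearts (SD 0.194), where replicate 4 stood above the other 3. Exoc6 was lowest in replicate 4 in 4 of 4 groups, at 8.51, 8.67, 8.69 and 8.45. The leading component of the variation within groups, which held 16% of it, had its highest score in replicate 4 in the same 4 groups, and whether these arrays shared a chip is not stated.

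Genes on either side of Exoc2 and Exoc4 were followed as well, skipping those without a kept probe. Of the 3 nearest genes with a kept probe on each side of Exoc2, at 78.28 to 1868 kb from it, 0 of 6 passed for genotype. Dusp22, a phosphatase and the closest of them, differed by -0.08 (adjusted p = 0.627 from limma), and Foxc1, a transcription factor and the closest on the other side, by -0.23 (adjusted p = 0.379). Agtr1a, Mboat1, Gmds and Serpinb1a lay between -0.36 (Mboat1, adjusted p = 0.142) and 0.14 (Serpinb1a, adjusted p = 0.625). Around Exoc4 the 3 genes before it (Podxl, Mkln1 and Mest, at 1685 to 2501 kb) did not pass, with values of -0.18, 0.02 and -0.04. The 3 genes after it, at 181.9 to 410.3 kb, all passed, where 4.51% of named genes had a called probe. They were Slc35b4, a transporter of nucleotide sugars, higher by 0.26 (adjusted p = 0.00933), and the aldo-keto reductases Akr1b8, higher by 0.40 (adjusted p = 0.0189), and Akr1b10, lower by 0.21 (adjusted p = 0.00914).

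Profiles most like those of Exoc2 and Exoc4 were sought by the root mean square difference over 16 arrays between log2 signals centred on each probe's mean. For Exoc2 the nearest were Ssbp2 (0.138), Ung (0.139), Dcakd (0.154), Ctnna3 (0.161) and Dennd2a (0.165), where the median over all probes was 0.377. All 5 were lower in cs-ERα-/- hearts, with differences of -0.53 for Ssbp2, a single-stranded DNA binding protein, -0.54 for Ung, a uracil glycosylase of DNA repair, -0.60 for Dcakd, -0.65 for Ctnna3, a cardiac α-catenin, and -0.83 for Dennd2a, a regulator of Rab GTPases. For Exoc4 they were Tspan12 (0.0772), Adssl1 (0.0814), Pkp2 (0.0918), Appl1 (0.0952) and Zmat3 (0.0954), with a median over all probes of 0.223. Pkp2, a desmosomal protein, was higher by 0.21 and Tspan12, a tetraspanin, by 0.33. These lists follow from likeness on the same arrays and say nothing of shared control. The search itself favors genes with the genotype difference of Exoc2 or Exoc4, so their shared direction is no separate result.

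Partners of the exocyst were read from 7 lists with 100 genes tested in all. By genotype 4 were called higher and 1 lower in cs-ERα-/- hearts, which is 5% of them, beside 4.51% of all 8581 named genes with a kept probe, and the median difference was 0.00689, beside -0.00413 over all genes. The called probe of 1 of these genes, Prkcz, passed the detection filter only through the cs-ERα-/- groups, and without it 3 rose and 1 fell, or 4%. The partners as a whole were therefore called about as often as other genes. By sex 3 rose and 0 fell in females (3%, beside 1.51% of all genes), and for the interaction 0 were called (0% of all genes).

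Among 19 tested small GTPases and their regulators, 1 rose by genotype. This was Rab8b, a Rab of exocytic vesicles, with means and SDs of 10.25 ± 0.10 (cs-ERα-/-) and 10.07 ± 0.09 (WT) over 8 mice each. It rose by 0.18 (adjusted p = 0.047 with limma, 0.0207 to 0.675 over 10 alternatives). The call was lost in 12 of 16 fits that left out 1 array, and its second probe was not called. The median of this list was 0.0106.

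Of 16 genes of membrane fusion, Stxbp2, a Munc18 protein that binds syntaxins, rose by genotype, from 6.83 ± 0.16 to 7.14 ± 0.12 (SD over 8 mice), that is by 0.31 (adjusted p = 0.0275 with limma, 0.0206 to 0.13 over 10 alternatives), a call lost in 7 of 16 fits without 1 array. The same list held 2 of the 3 calls by sex. Vamp7, a vesicle SNARE encoded on the X chromosome, was at 8.14 ± 0.13 in females and 7.57 ± 0.18 in males (SD, n = 8 each), higher in females by 0.57 with no overlap (adjusted p = 2.19e-05, 1.7e-05 to 0.00111 over 10 alternatives). Vamp4, a SNARE of the Golgi, was higher by 0.19 (adjusted p = 0.0463, 0.0173 to 0.464), a call lost in 13 of 16 fits without 1 array.

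Of 13 genes of GLUT4 vesicle traffic, 0 were called by genotype. Slc2a4, which encodes GLUT4, differed by -0.12 (adjusted p = 0.27 from limma) and was named after its value was seen. Sort1, a sorting receptor of GLUT4 vesicles, rose in females by 0.28 at its brightest probe, with no overlap of the sexes (adjusted p = 0.00224, 0.00146 to 0.0902 over 10 alternatives) and by 0.29 at another (adjusted p = 0.00315), while the third and dimmest probe was not called.

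Of 27 genes of other tethering complexes (COG, GARP, HOPS, CORVET, TRAPP and the Dsl1 type), 0 rose and 1 fell by genotype, with a median of -0.00311. It was Trappc2l of TRAPP, which was at 11.82 ± 0.06 in cs-ERα-/- and 11.98 ± 0.04 in WT hearts (SD, n = 8 each) with no overlap (adjusted p = 0.0123 from limma; 0.00492 to 0.417 over 10 alternatives).

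Of 12 polarity and phosphoinositide partners, 2 were called higher by genotype, of which 1 (Iqgap1) at a probe detected in every group. Iqgap1, a scaffold that binds the exocyst, rose by 0.21 (adjusted p = 0.0422 with limma, 0.0146 to 0.53 over 10 alternatives; lost in 14 of 16 fits without 1 array), with an SD of 0.0307 in cs-ERα-/- and 0.171 in WT hearts. Prkcz, an atypical protein kinase C, differed by 0.23 at its brightest probe (adjusted p = 0.176). Its dimmer probe had an adjusted p of 0.0265 but was detected on 3 of 8 WT and 7 of 8 cs-ERα-/- arrays, so it was kept only through the genotype in which it was higher, and this call is not taken as a change. Of 10 genes of RalB and TBK1 signaling and autophagy, 0 were called, and Tbk1, the kinase that binds Exoc2 with RalB, differed by 0.09 (adjusted p = 0.344), beside 0.08 for Gabarapl1 and -0.05 for Map1lc3a of the autophagosome. Of 3 tested paralogs of exocyst subunits, 0 were called, with -0.05 for Exoc3l, -0.04 for Exoc3l4 and 0.11 for Tnfaip2.

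**Figure D4:**
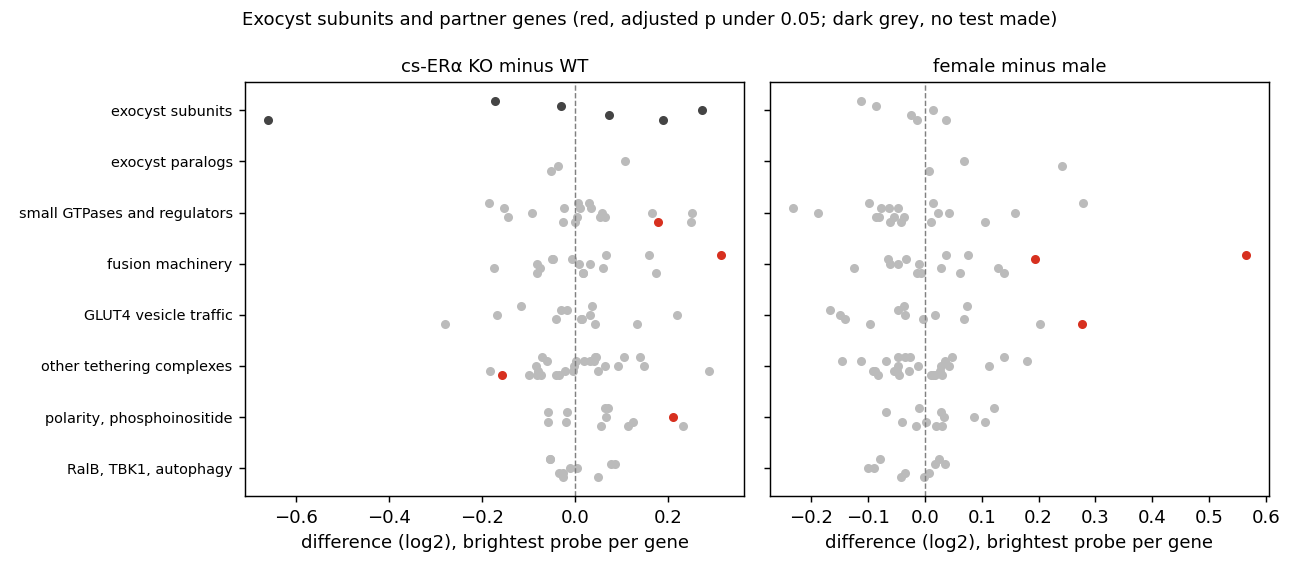
Differences on the log2 scale (horizontal axis) of the brightest probe of each gene, by list, for genotype and for sex, with called genes in red (the called probe of Prkcz is not its brightest) and members without a test for genotype in dark grey. Exoc2, at -0.66 and chosen by its genotype difference, lies below each of the partner genes shown for genotype. Vamp7, at 0.57, lies above each other gene shown for sex.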

How the data were processed

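Hearts of 16 mice were profiled on Illumina Mouse Ref-8 arrays, 1 per mouse. Genome Studio was used by the authors to average the beads of a probe. The deposited non-normalized signal is a linear intensity from which background had been subtracted, and the deposited detection p-value beside it is read from the same array. The deposited normalized values are linear intensities after the authors' cubic spline, used as an alternative.

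The neqc function of limma 3.58.1 in R 4.3.3 corrected background by the detection p-values, added an offset of 16, normalized by quantiles and took log2. Of 25697 probes, 1719 carry no symbol in the platform annotation used here; 12246 passed the filter, for 8581 named genes. A model of 4 group means without a chip term was fitted with limma, with moderation by an intensity trend, and Benjamini-Hochberg adjustment over all kept probes; it was tested on simulated data. The members, partner lists and marker lists were chosen with earlier results of these data known. Named were all members; of each partner list up to 6 called genes, otherwise up to 3 genes with the smallest genotype p at the brightest probe; the 5 nearest profiles; and the 3 nearest genes on each side, from GRCm38.p6 gene order. Marker sums add linear signals of the brightest probes. Replicates are separate mice. Alternatives were the authors' values, no further background correction, median scaling, 2 other filters, 2 other variance models, a replicate block, the leading residual component as a covariate, and leaving out each array. Median scaling over kept probes and within-array ratios were chosen after seeing the data.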

Additional observations from a re-analysis of the deposited data

Results flagged for a closer look

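In 3 of 24 groups of 4 mice (6 probes in 4 groups) a single mouse stood apart from the other 3 by Dixon's test, where chance gives about 1 in 20. Exoc2 was low in female WT replicate 3 (log2 signal 8.88), which remained above every cs-ERα-/- mouse. Exoc4 was low in male WT replicate 4 (8.97). Exoc3 was high in male cs-ERα-/- replicate 2 (9.21).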

How the results depend on the processing

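The genotype differences chose the members, so their values across settings describe the processing and lend no support. Over 10 alternatives the difference was -0.69 to -0.66 for Exoc2, 0.26 to 0.28 for Exoc4 and 0.16 to 0.19 for Exoc8, and the call was lost in 0, 1 and 8 of them. In the 16 fits without 1 array it was lost in 0, 0 and 11. Median scaling called 1 member, Exoc2, and 131 probes in all, against 458 (77.1% and 65.1% of them higher), while median scaling over kept probes, added after seeing the data, called 491 (55.6% higher). The replicate block called 2 members for genotype and 537 probes in all, and the residual component 624. Within males 2 members were called with the residual component and 1 to 2 without 1 array (2 without female WT replicate 3). For sex and the interaction 0 members were called under each setting. Deviations of same-numbered arrays of different groups correlated at -0.107 to 0.204, not over 0.1 in every pair, so the number was not taken as a pairing. For 9 of 16 arrays the closest array of another group had its number, and the arrays numbered 4 shared a high residual component, so a link between some of them was not settled.

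Signs turned only for values near 0. With median scaling the sex difference was 0.0238 for Exoc3 and 0.0286 for Exoc8, and the interaction 0.018 for Exoc4, 0.0454 for Exoc7 and 0.0517 for Exoc8. With median scaling over kept probes Exoc3 within females was at -0.0023. Without 1 array the ranges were -0.0102 to 0.0641 (Exoc2), -0.0123 to 0.0388 (Exoc4) and -0.0395 to 0.0129 (Exoc8) for sex, -0.0149 to 0.133 (Exoc2), -0.0933 to 0.0095 (Exoc4), -0.0886 to 0.0775 (Exoc7) and -0.0678 to 0.0298 (Exoc8) for the interaction, -0.0704 to 0.0045 for Exoc6 by genotype, -0.0282 to 0.122 for Exoc6 in males, and -0.0086 to 0.0612 for Exoc3 in females.

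Against 5 partner genes called for genotype, 1 was called with median scaling, 1 without a probe filter, 3 without the intensity trend, 2 with the ordinary linear model and 1 to 5 without 1 array, while 6 were called with the replicate block and 7 with the residual component. By sex 3 were called, 1 with median scaling, 5 with the residual component and 2 to 4 without 1 array. Vamp7 kept its call in each setting. The cause of these changes was not tested. Signal over background limits Exoc5, detected on 0 of 16 arrays.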

Other observations

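The marker lists were chosen with earlier results of these data known, so the counts below are a description only. Over all named genes, 4.51% had a probe called for genotype. Beside the exocyst, 10 of 12 macrophage and myeloid markers rose in cs-ERα-/- hearts and 0 fell, with a median of 0.385. Of 9 cardiomyocyte markers 1, Nppa, rose, with a median of 0.0475 over the list. Of 7 tested fibroblast markers 1 rose, with a median of 0.125, and of 6 endothelial markers 0 were called, with a median of -0.106. Of 2 tested smooth muscle markers (Cnn1 and Tagln were not detected) 1, Acta2, rose, while Myh11 was at -0.13 and not called. Of 5 markers of skeletal muscle 4 rose, with a median of 0.874. Of the 2 tested markers of neutrophils and lymphocytes, the 1 of adipose tissue and the 2 of red blood cells, 0 were called.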
